A study of Mus musculus with 7 samples.

Results

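The seminal vesicle makes most of the fluid of the ejaculate in its secretory epithelium, whose cells are filled with transcripts of the seminal vesicle secretory (*Svs*) genes. The cells described here are the ones outside that population, compared between mice on a low protein diet and mice on a control diet. They were taken as cells with at least 500 genes, at most 10% of UMIs on mitochondrial genes and under 30% of UMIs on *Svs2*, *Svs4*, *Svs5* and *Svs6*. A UMI (unique molecular identifier) is a short barcode by which each captured RNA molecule is counted once. These cells numbered 4079 in 6 mice, of 30609 such cells in all 23 mice of the series and 53352 cells deposited. Of them, 1575 came from 3 mice on the low protein diet and 2504 from 3 mice on the control diet. All 6 were wild-type FVB/NJ males, 12 weeks old, that had eaten their diet for 9 weeks from weaning on. A further group of 3 mice, of the same strain and age and fed a high fat diet for as long, gave 2307 cells and was set against the low protein mice directly. On each diet 2 mice had been marked with sample tags and run together in a pool, which also held 2 mice under caloric restriction, and 1 mouse had been run as a library of its own (the single-mouse library). The labels give the pool as 1 sample, and the diet of each mouse inside it was read from the name of its table. Cells of 1 mouse are not replicates, so UMIs were summed per mouse and the mouse was the unit of every test.

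Outside the secretory cells the organ holds basal epithelial cells, fibroblasts, smooth muscle, vessels, nerve sheath cells and immune cells. The libraries also held some luminal cells with prostate genes. From its tissue staining the paper leans towards prostate cells carried over in dissection, although it gives reasons why such cells may belong to the organ. Their origin was not tested here. Lack of amino acids is sensed by GCN2, a kinase that slows translation and raises the transcription factor ATF4, and by mTORC1, which drives growth when amino acids are plentiful. Cells that secrete much protein fold it in the endoplasmic reticulum (ER) with chaperones such as BiP (*Hspa5*) and disulfide isomerases, and destroy what misfolds through ER-associated degradation. The sensors ATF6 and IRE1 (*Ern1*) and the factor XBP1 set the level of these genes through short promoter elements.

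The summed libraries differed in depth more within a diet than between diets. The sums without *Svs* genes held between 530317 and 4596814 UMIs per mouse in the pool and between 734622 and 1731874 in the single-mouse libraries. A cell had a median of 2714 to 3266.5 UMIs in the pool and of 1017.5 to 1130.5 in the single-mouse libraries, so the kind of library was a block in the tests. The second control mouse of the pool was the smallest library, with 158 cells. The limit on *Svs* transcripts kept 88.4% to 90.8% of the cells of a pool mouse but only 33.5% of the control and 17.8% of the low protein single-mouse library. The summed share of *Svs2*, *Svs4*, *Svs5* and *Svs6* had a median over the kept cells of 2.02% and 3.81% in these 2 libraries. That median was at most 0.426% in the pool mice. Within 5 percentage points of the limit, 22 cells of the 6 mice lay just inside and 24 just outside. No barcode was shared between mice of the pool, and 6 were shared between the control and the low protein single-mouse libraries. The limit did not remove all luminal cells: 119 low protein and 143 control cells fell into clusters named prostate-like, secretory-like or urothelium-like from their markers. Markers of epididymis and fat were close to 0, with summed levels of at most 10.6 and 9.71 CPM (UMIs scaled to a library of fixed size), and *Lcn8*, *Lcn9*, *Lcn5*, *Lep* and *Plin1* had no UMI in any of the 6 mice.

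No gene passed the test between the low protein and the control diet in the summed cells. Of 9657 genes tested with edgeR's quasi-likelihood test, 0 were higher and 0 were lower at an adjusted p of 0.05 (0% of the genes in either direction), and the lowest adjusted p was 0.9999. At an unadjusted p under 0.05 there were 237 genes, 148 higher and 89 lower. DESeq2 called 2 genes, the chemokine *Ccl20* and the mesothelial and urothelial gene *Upk3b*, each with more UMIs in 1 mouse than in the others together. In simulated counts with the depth of these mice the test recovered 39.5% of the genes changed by 1 on the log2 scale and 98.3% of those changed by 2. There 172 and 176 of the genes tested were changed at once, so these shares need not hold where few genes change. In the data *Cx3cr1*, with a log2 difference of 1.83, had an adjusted p of 0.9999 from edgeR. The biological coefficient of variation between mice of 1 diet and kind of library was 19.6%, and the median standard error of a log2 difference was 0.256. In these bulk sums, fewer cells of a type and less RNA per cell cannot be told apart.

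A gene was also described as lying on 1 side when both low protein mice of the pool were above (or both below) both control mice of the pool and the low protein single-mouse library was on that same side of the control one. By this rule 6.81% of the genes tested were higher (658 genes) and 6.90% were lower (666 genes), and the counts of gene lists below are read against these shares. Levels are CPM of the UMIs without *Svs* genes, scaled by TMM over the diet mice unless said otherwise. They are not per length, so levels of different genes are not compared. In every such sentence the pool mice come before the single-mouse library.

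The endoplasmic reticulum list was the one that lay most to 1 side. Of 26 ER folding genes, all of them tested, 14 were lower in the low protein mice by the rule of sides and 1, *Ern1*, was higher, against 6.90% and 6.81% of all genes. The fitted log2 difference was below 0 for 25 of the 26, with a median of -0.30, and the median over all genes tested was 0.01. None of the 26 passed the test.

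**Figure D1:**
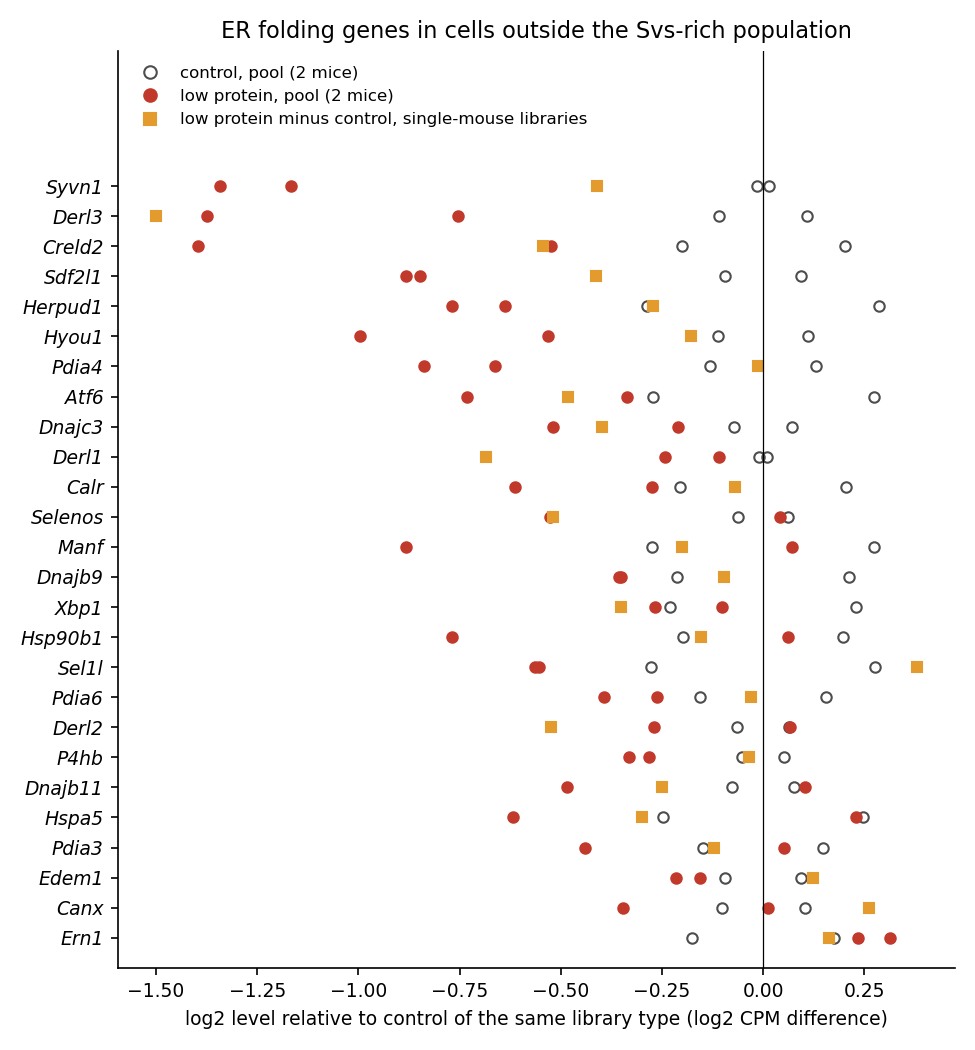
Level of each ER folding gene (rows) in the summed cells outside the *Svs*-rich population, as a log2 difference of CPM. Open circles are the 2 control mice and filled red circles the 2 low protein mice of the pool, each relative to the mean of the pool controls, and orange squares are the low protein minus the control single-mouse library. Most filled circles and squares lie left of 0, the pool groups are separate for *Syvn1*, *Derl3*, *Creld2* and *Sdf2l1*, and *Ern1* lies to the right.

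*Syvn1* encodes HRD1, the ubiquitin ligase at the core of ER-associated degradation (ENSMUSG00000024807, GRCm38 chromosome 19, 6046576 to 6053712, plus strand, protein coding). Its level was 105, 107 and 27.8 CPM in the control mice and 41.8, 47.1 and 20.9 CPM in the low protein mice. The pool groups did not overlap, the single-mouse pair differed less, and the log2 difference was -1.05 (standard error 0.21, adjusted p = 0.9999 from edgeR). *Derl3*, a derlin that feeds misfolded proteins to HRD1 (chromosome 10, 75893413 to 75895941), was at 40.1, 46.6 and 6.95 CPM in the control and 16.7, 25.7 and 2.46 CPM in the low protein mice. *Creld2*, an ER protein with isomerase activity, was at 290, 219 and 184 CPM in the control and 175, 95.9 and 127 CPM in the low protein mice. *Sdf2l1*, a partner of BiP (chromosome 16, 17130138 to 17132383), was at 166, 146 and 54.0 CPM against 84.3, 86.4 and 40.6 CPM. *Herpud1*, a stress-induced scaffold of the HRD1 complex, was at 563, 379 and 205 CPM against 271, 297 and 170 CPM. In these 4 genes every low protein mouse lay below every control mouse of the same kind of library, with log2 differences of -1.02, -0.81, -0.75 and -0.59 in the order given. The chaperones *Hyou1* (log2 difference -0.58) and *Calr* (-0.33), the disulfide isomerases *Pdia4* (-0.51), *Pdia6* (-0.24) and *P4hb* (-0.21), the co-chaperones *Dnajc3* (-0.38) and *Dnajb9* (-0.30), the sensor *Atf6* (-0.48) and the derlin *Derl1* (-0.34) made up the rest of the 14.

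The most abundant chaperones overlapped between the diets. *Hspa5* was at 2514, 1785 and 3668 CPM in the control and 2483, 1381 and 2982 CPM in the low protein mice, and *Hsp90b1* (GRP94) at 1708, 1297 and 1351 CPM against 1553, 874 and 1214 CPM. In both the first low protein mouse of the pool lay between the pool controls. *Ern1*, the IRE1 sensor, was at 37.1, 29.1 and 20.9 CPM in the control and 38.7, 40.9 and 23.4 CPM in the low protein mice, a log2 difference of 0.19.

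Promoters of the list are shown because ATF6 and XBP1 are known to act through the ER stress elements they hold. In the RefSeq promoters of GRCm38.p6, from 250 bases before to 50 after a gene's start, 22 of the 26 genes had an entry. The ER stress response element was searched on both strands as CCAAT and CCACG with any 9 bases between them, and its second form as ATTGG and CCACG with any 1 base between them. The first was in 9 of the 22 genes (*Calr*, *Canx*, *Creld2*, *Derl3*, *Dnajc3*, *Hsp90b1*, *Hspa5*, *Pdia6* and *Syvn1*) and in 39 of 32851 promoters (0.119%). The second was in 2 of the 22 (*Dnajb11* and *Herpud1*) and in 12 of all promoters (0.0365%). A match is a run of letters and not a measured site. Genes with a match were not all lower by the rule of sides: *Syvn1* and *Derl3* were lower, while *Hspa5* and *Canx* lay on neither side. The windows of the 4 members with the largest log2 differences among those with a match follow, read on the gene's strand with the element in capitals.
*Syvn1*, chr19:6046492-6046575, plus strand: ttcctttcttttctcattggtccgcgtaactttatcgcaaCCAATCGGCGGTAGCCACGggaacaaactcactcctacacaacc
*Derl3*, chr10:75893202-75893300, plus strand, element on the opposite strand: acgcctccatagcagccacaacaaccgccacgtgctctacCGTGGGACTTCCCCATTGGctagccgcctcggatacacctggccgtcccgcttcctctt
*Creld2*, chr15:88819480-88819578, plus strand, element on the opposite strand: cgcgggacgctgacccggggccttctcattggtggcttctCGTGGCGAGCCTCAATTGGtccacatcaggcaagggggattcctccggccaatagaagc
*Herpud1*, chr8:94386337-94386427, plus strand, second form of the element: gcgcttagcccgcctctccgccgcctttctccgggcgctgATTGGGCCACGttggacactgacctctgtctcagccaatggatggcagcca

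Much of the RNA of the ER folding list sat in the few luminal cells that the *Svs* limit had left in. Prostate-like, secretory-like and urothelium-like cells together held 48.8% and 44.7% of the list's UMIs in the control mice of the pool and 24.6% and 34.6% in the low protein mice of the pool. In the single-mouse libraries they held 2.46% and 0%. Prostate-like cells alone gave 20.5% and 14.4% of all non-*Svs* UMIs in the pool controls and 9.50% and 12.5% in the low protein mice. With these 3 classes left out, an alternative chosen after the data were seen, 1 of 25 list members tested was lower and 1 was higher by the rule of sides, against 6.53% and 7.07% of all genes, and the median log2 difference was -0.12. A further alternative drew the same number of cells of each class from every mouse, and did so once. It held 121 cells per mouse: 31 fibroblast-like, 27 basal-like, 17 T or NK-like, 17 smooth muscle-like, 12 blood endothelium-like, 11 macrophage-like and 6 pericyte-like. Classes with too few cells in some mouse, among them the 3 luminal ones, and unnamed cells were not drawn. In this draw 4 of 23 members were lower (17.4%) and 1 was higher, against 8.14% and 8.75% of 4937 genes tested, and the median was -0.23. The side count therefore depended on which cells were summed, while 21 of the 25 fitted differences stayed below 0 without the luminal cells. Without these cells the list summed to 6797, 5155 and 10760 CPM in the control mice (no TMM). In the low protein mice it summed to 7315, 4330 and 9704 CPM. The first low protein mouse of the pool thus lay above both pool controls, and the second below both.

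**Figure D2:**
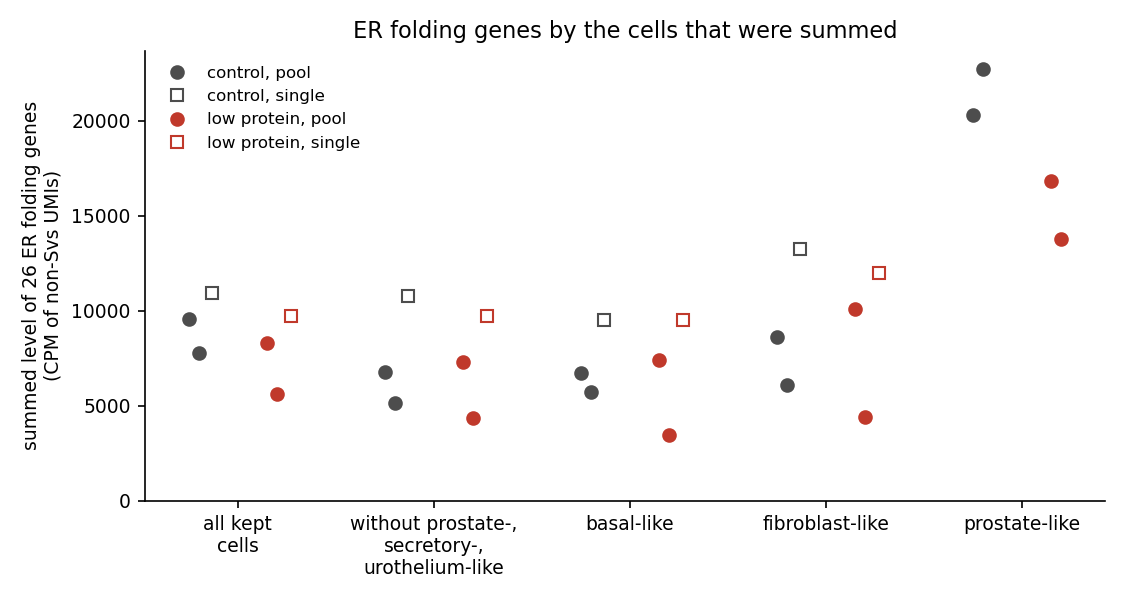
Summed level of the 26 ER folding genes (vertical axis, CPM of non-*Svs* UMIs without TMM) by the cells that were summed. Filled circles are pool mice and open squares single-mouse libraries, in grey for control and red for low protein. Outside the prostate-like cells the diets overlap in the pool, and in prostate-like cells the 2 control mice (20290 and 22730 CPM) lie above the 2 low protein mice (16820 and 13780 CPM).

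In all kept cells the summed level of the list was 9557, 7776 and 10950 CPM in the control and 8323, 5598 and 9704 CPM in the low protein mice, which overlapped in the pool. In basal-like cells it was 6711, 5702 and 9499 CPM against 7434, 3439 and 9541 CPM. In fibroblast-like cells it was 8631, 6101 and 13260 CPM against 10090, 4421 and 11980 CPM. Neither class separated the diets. Mice of 1 diet could differ as much: over all kept cells, with TMM, the 2 caloric restriction mice of the pool were at 11440 and 4177 CPM. By the rule of sides, 4 of 23 members were lower and 0 were higher in basal-like cells, against 7.45% and 7.81% of 4737 genes. In fibroblast-like cells 2 of 24 were lower and 0 higher, against 7.95% and 9.09% of 4479 genes.

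In prostate-like cells the pool mice did separate. The summed level of the list there was 20290 and 22730 CPM in the control and 16820 and 13780 CPM in the low protein mice of the pool. Of its 26 members, 18 were lower without overlap and 1 was higher, against 17.8% lower and 13.8% higher of the 3367 genes with at least 50 UMIs in these cells. *Calr*, a lectin chaperone, was at 1125 and 1222 CPM in the control and 558 and 758 CPM in the low protein mice. *Creld2* was at 942 and 1025 CPM against 628 and 399 CPM, and *Herpud1* at 1821 and 1484 CPM against 1286 and 1061 CPM. The high fat mice of the pool had 16830 and 19700 CPM for the list, below both control mice. The first of them was level with the first low protein mouse (16820 CPM), and the second lay above both low protein mice. These sums rest on few cells: 82 and 8 in the control, 20 and 45 in the low protein and 75 and 49 in the high fat mice. A prostate-like cell also held more non-*Svs* UMIs on average in the control mice (11470 and 9516) than in the low protein (6452 and 5569) and the high fat mice (6865 and 7577). The medians overlapped, at 8260 and 2540 in the control, 3200 and 2241 in the low protein and 2332 and 3637 in the high fat mice. The part of this depth in the list's level was not tested. The single-mouse libraries had 5 (control) and 0 (low protein) prostate-like cells, so the pool had no second set of libraries to set it against, and with 2 mice against 2 no test was run.

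Against the high fat diet the list lay on the same side. Of the 26 members, 10 were lower in the low protein mice by the rule of sides and 0 were higher, against 8.01% and 8.26% of 9606 genes tested, with a median log2 difference of -0.29. The luminal cells moved with this comparison too: in the high fat mice of the pool they held 38.2% and 50.4% of the list's UMIs, and prostate-like cells gave 18.6% and 22.7% of all non-*Svs* UMIs, above the low protein mice in both. Their part in the result was not tested. *Herpud1* had a log2 difference of -0.67 (standard error 0.13) and *Derl3* of -1.43 (standard error 0.33), and neither passed. Both comparisons use the same low protein mice, so the second is not a separate look at them.

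Of the members of the protein synthesis and breakdown lists, 10.4% to 26.3% lay on the lower side, against 6.90% of all genes. The differences were small. For the ribosome the side depended on the cells summed. For the synthetases and translation factors the share fell with the same number of cells of each class, and not without the luminal cells. Of 77 ribosomal protein genes tested, 8 were lower (10.4%) and 0 were higher by the rule of sides, and the log2 differences ran from -0.21 to 0.02 with a median of -0.07. *Rplp1*, of the ribosomal stalk, and *Rps25*, of the small subunit, had log2 differences of -0.21 and -0.18. With the same number of cells of each class the direction turned, with 19 of the 77 higher (24.7%, against 8.75% of all genes), 0 lower and a median of 0.10. Without the luminal cells 0 were on either side. In basal-like cells 16 of the 77 were lower and 0 higher, against 7.45% and 7.81% of all genes. In fibroblast-like cells 11 were higher and 1 lower, against 9.09% and 7.95%. Of 22 translation factors, 4 were lower (18.2%: *Eif5*, *Eif4a1*, *Eif4g1* and *Rack1*) and 0 were higher, with log2 differences of -0.23 for *Eif5* and -0.21 for *Eif4a1*. Of 19 aminoacyl-tRNA synthetase genes, which charge tRNAs with amino acids, 5 were lower (26.3%: *Yars*, *Iars*, *Rars*, *Nars* and *Gars*) and 1, *Vars*, was higher. *Yars* was at 24.9, 23.3 and 32.1 CPM in the control and 15.2, 20.4 and 25.8 CPM in the low protein mice, and *Iars* at 22.6, 19.4 and 18.7 CPM against 15.2, 18.3 and 13.5 CPM. Of 31 proteasome genes, 4 were lower (12.9%: *Psmd7*, *Psmd2*, *Psmc5* and *Psmd11*) and 0 higher, with log2 differences of -0.32 for *Psmd7* and -0.28 for *Psmd2*. Without the luminal cells 5 of 19 synthetase genes (26.3%), 5 of 22 translation factors (22.7%) and 7 of 31 proteasome genes (22.6%) were lower, against 6.53% of all genes. With the same number of cells of each class, 0 of 8 synthetase genes tested, 2 of 22 translation factors and 4 of 31 proteasome genes were lower, against 8.14% of all genes, and *Psmd2* turned to 0.0737. None of these genes passed the test.

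Of the genes that amino acid shortage is known to raise through ATF4, 29 were listed and 24 tested. By the rule of sides 1 was higher and 1 was lower (4.17% each), and 19 of the 24 were fitted below 0, with a median log2 difference of -0.12. Once cell numbers of each class were made equal, 7 of 15 were fitted below 0. *Gdf15*, a stress hormone that curbs appetite (chromosome 8, 70629393 to 70632456, minus strand), was at 41.5, 42.7 and 290 CPM in the control and 66.0, 80.1 and 372 CPM in the low protein mice. The groups did not overlap within a kind of library, and the log2 difference was 0.63 (standard error 0.17, adjusted p = 0.9999 from edgeR). *Slc7a5*, a transporter of large neutral amino acids, was at 76.6, 68.0 and 31.5 CPM against 47.8, 52.4 and 29.5 CPM, a log2 difference of -0.43, and it turned to 0.26 with the same number of cells of each class. *Atf4* itself was at 457.5, 379 and 516 CPM in the control and 364, 387 and 479 CPM in the low protein mice. Its groups overlapped in the pool. Of 27 autophagy and lysosome genes, 3 were higher (*Tfeb*, *Ulk1* and *Mcoln1*) and 1, *Atg5*, was lower. *Tfeb*, the factor that drives lysosome genes, was at 4.38, 0 and 5.35 CPM in the control and 11.4, 9.43 and 11.1 CPM in the low protein mice. *Ulk1*, the kinase that starts autophagy, was at 12.9, 9.71 and 22.98 CPM against 22.8, 19.4 and 29.5 CPM. Both rest on few UMIs, 71 for *Tfeb* and 195 for *Ulk1* over 6 mice.

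**Figure D3:**
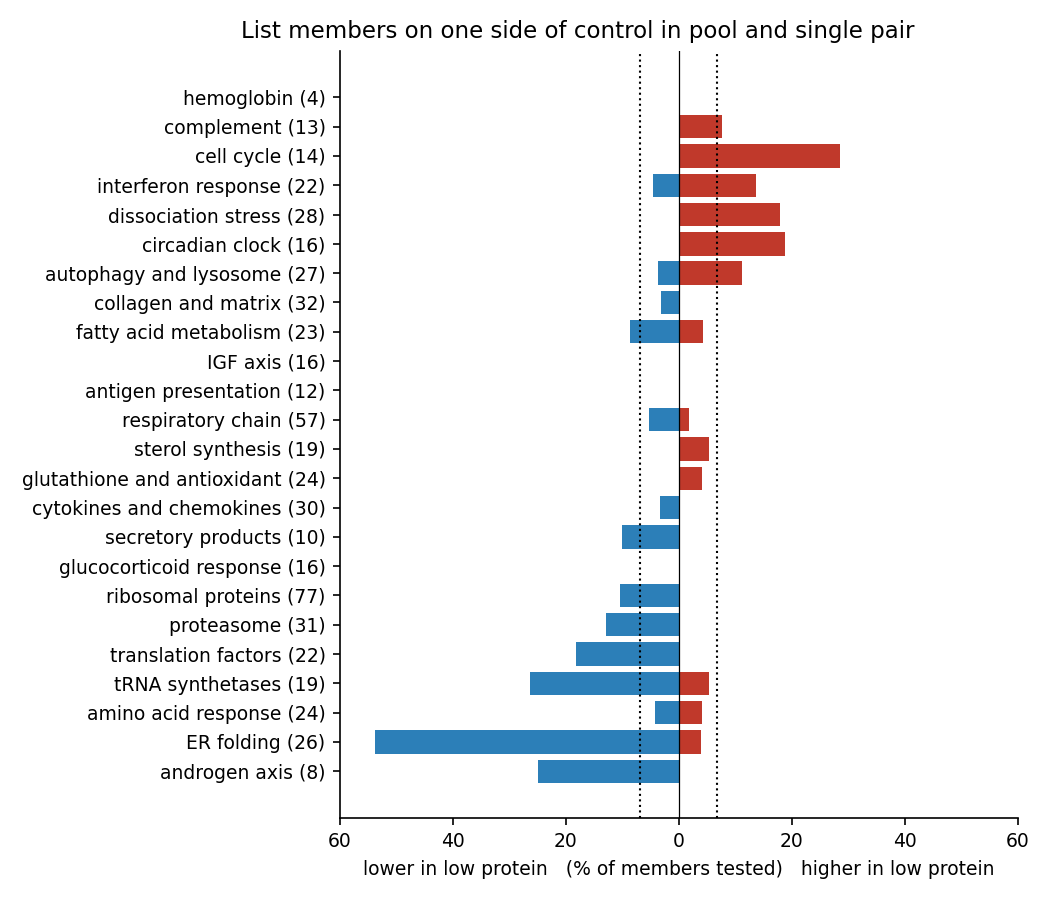
Share of each gene list (members tested in brackets) whose members lay on 1 side of the control mice in the pool and in the single-mouse pair, to the left for lower and to the right for higher in the low protein mice. Horizontal bars give percent of the members tested, and the dotted lines mark the shares of all genes tested, 6.90% lower and 6.81% higher. ER folding reaches 53.8% on the lower side, and the cell cycle list 28.6% on the higher side with 4 of 14 genes.

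The metabolic lists and the growth factor list stayed near the shares of all genes. Of 23 fatty acid genes, 2 were lower and 1, *Acaca*, was higher. *Angptl4*, an inhibitor of lipoprotein lipase, was at 30.7, 48.6 and 35.8 CPM in the control and 26.6, 13.1 and 13.5 CPM in the low protein mice, and *Scd1*, the desaturase that makes oleate, at 35.3, 35.0 and 55.1 CPM against 30.4, 27.2 and 30.7 CPM. Their log2 differences were -1.05 and -0.47, and *Scd1* turned to 0.16 with the same number of cells of each class. Of 19 sterol synthesis genes, 1, *Stard4*, was higher and 0 were lower, with log2 differences of 0.35 for *Stard4* and -0.27 for *Msmo1*, which turned to 0.39 with the same number of cells of each class. Of 16 genes of the insulin-like growth factor (IGF) axis, 0 were on either side, with log2 differences of 0.36 for the binding protein *Igfbp4* and -0.31 for the protease *Htra1*. Of 57 respiratory chain genes, 3 were lower and 1 higher, with log2 differences of -0.22 for *Ndufa3* and -0.17 for *Ndufa6*. Of 24 glutathione and antioxidant genes, 1 was higher and 0 were lower. That gene was *Gpx3*, a secreted glutathione peroxidase, at 25.8, 13.6 and 127 CPM in the control and 72.9, 50.3 and 129 CPM in the low protein mice, while *Prdx6* had a log2 difference of -0.32 that turned to 0.13 with the same number of cells of each class.

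Steroid-responsive genes were read for 2 hormones. Of 8 genes of the androgen axis tested, 2 were lower, both of them markers of the prostate-like cells. *Tgm4*, a transglutaminase of prostatic secretion, was at 2049, 2272 and 104 CPM in the control and 888, 1832 and 0 CPM in the low protein mice, and *Pbsn* (probasin) at 1214, 1507 and 139 CPM against 909, 920 and 0 CPM. Within prostate-like cells of the pool, *Tgm4* overlapped, at 9336 and 14840 CPM against 8711 and 13340 CPM without TMM, and without the luminal cells the log2 differences of *Tgm4* and *Pbsn* were 1.27 and 1.42. The 6 prostate markers summed to 6403, 4280 and 722 CPM in the control and 2666, 3409 and 624 CPM in the low protein mice. Of the 5 of them tested, 2 were lower by the rule of sides, *Tgm4* and *Pbsn*, and 0 were higher. *Spink1*, the largest part of the single-mouse sums, was higher in the low protein single-mouse library (622 CPM) than in the control one (461 CPM). Of 16 glucocorticoid-responsive genes, 0 lay on either side, with log2 differences of 0.40 for *Tsc22d3* (GILZ) and 0.25 for *Dusp1*. With the same number of cells of each class, 4 of 14 were higher (28.6%) and 1 was lower, against 8.75% and 8.14% of all genes, and the median was -0.01. Of 10 other secretory products tested, 1 was lower, *9530002B09Rik*, at 552, 416 and 57.7 CPM against 283, 253 and 0 CPM, and *Spinkl* had a log2 difference of 0.52 that turned to -0.15 with the same number of cells of each class.

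Complement and interferon-response genes leaned to higher levels in the fit, and cytokine and antigen presentation genes did not. Few genes of these lists lay on 1 side. All 13 complement genes tested had a log2 difference above 0 (median 0.50), yet only 1, *C3*, was higher by the rule of sides. At equal cell numbers of each class, 10 were tested, 3 of them fitted below 0, and the median was 0.07. *C3*, the central protein of the cascade (chromosome 17, 57203970 to 57228136, minus strand), was at 18.5, 15.5 and 62.0 CPM in the control and 44.8, 58.7 and 98.3 CPM in the low protein mice, without overlap in either kind of library. Its log2 difference was 1.20 (standard error 0.24), the lowest p of the genes that were higher, and it did not pass (adjusted p = 0.9999 from edgeR). *Cfp* (properdin) had a log2 difference of 0.98, and its pool mice overlapped. The subunits *C1qa*, *C1qb* and *C1qc* are macrophage genes, and 7 macrophage markers summed to 427, 1530 and 239 CPM in the control and 856, 1727 and 294 CPM in the low protein mice, so the second control mouse of the pool lay between the low protein mice of the pool. Of 22 interferon-response genes, 17 were fitted above 0, and *Ifit3* had a log2 difference of 1.12. By the rule of sides 3 were higher and 1, *Ifitm3*, was lower. At equal cell numbers of each class, 8 of 15 were fitted below 0, with a median of -0.0853. Of 30 cytokine and chemokine genes, 0 were higher and 1, *Tgfb1*, was lower. *Ccl8* had a log2 difference of 2.31 that came from 1 mouse, at 96.4 CPM in the second low protein mouse of the pool and at most 21.4 CPM in the others. It turned to -0.14 at equal cell numbers of each class. *Ccl17* had a log2 difference of -0.62. Of 12 antigen presentation genes, 0 lay on either side, with log2 differences of 0.43 for *H2-Eb1* and 0.31 for *H2-DMb1*. *H2-Eb1* turned to -0.42 with the same number of cells of each class, and both were below 0 without the first control mouse of the pool (-0.0688 and -0.14).

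The remaining lists concern growth, the clock, stress and stroma. Of 14 cell cycle genes tested, 4 were higher (*Cenpa*, *Birc5*, *Stmn1* and *Tyms*) and 0 were lower, with a median log2 difference of 0.27, but with the same number of cells of each class 6 were tested and 0 lay on either side. The lowest p of the list belonged to *Rrm1* (log2 difference 1.16), a subunit of ribonucleotide reductase, and *Cenpf* (0.95), a kinetochore protein, and neither lay on 1 side. Of 16 circadian clock genes, 3 were higher (*Per3*, *Tef* and *Bhlhe40*) and 0 were lower, and with the same number of cells of each class 1 of 12 was higher and 1 lower, with a median of -0.15. *Per3* had a log2 difference of 0.43, as did *Dbp*, which was higher in the pool and lower in the single-mouse pair. Of 28 genes that dissociation of tissue is known to induce, 5 were higher (*Hspa1a*, *Zfp36*, *Btg2*, *Egr1* and *Jun*) and 0 were lower, with a median of 0.16. *Hspa1a*, a heat shock chaperone, was at 503, 330.1 and 763 CPM in the control and 644, 599 and 964 CPM in the low protein mice, and *Zfp36* had a log2 difference of 0.36. Their part in the other differences was not tested. Of 32 collagen and matrix genes, 0 were higher and 1 was lower. That gene was *P4ha2*, a collagen prolyl hydroxylase, at 14.3, 21.4 and 28.3 CPM in the control and 12.1, 11.5 and 12.3 CPM in the low protein mice, while *Timp2* had a log2 difference of 0.33. All 4 hemoglobin genes were fitted above 0 (median 2.04), with *Hbb-bt* at 2.66 and *Hba-a1* at 2.15, and 0 lay on either side. Their UMIs came from few cells, 1 of which held 2681 of the 6845 *Hbb-bs* UMIs of the first low protein mouse of the pool, and the low protein single-mouse library had none.

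Outside the lists, genes with the lowest p are given by level, although none passed. Among those that were higher in the low protein mice, *Cx3cr1*, the fractalkine receptor of mononuclear phagocytes, was at 7.61, 7.77 and 1.07 CPM in the control and 17.5, 28.8 and 9.83 CPM in the low protein mice. *Prc1*, a protein of the spindle midzone, was at 5.31, 11.7 and 13.9 CPM against 13.7, 21.5 and 46.7 CPM. *Angptl7*, a secreted protein of a stromal population, was at 4.84, 0 and 80.2 CPM against 35.7, 18.9 and 176 CPM, and its log2 difference of 1.84 turned to -0.26 with the same number of cells of each class. *Cd69* (1.13), a marker of activated and resident lymphocytes, *Ighm* (1.496), the heavy chain of IgM, *Dab2ip* (0.62), *Arhgap25* (1.49) and *Cbfa2t2* (1.10) followed by their log2 differences. All of these lay on the higher side.

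Among genes that were lower, *Mmp7* (matrilysin), a protease of glandular epithelium, was at 101, 171 and 4.28 CPM in the control and 50.1, 22.0 and 2.46 CPM in the low protein mice. *Mt3*, a metallothionein, was at 242.5, 266 and 38.0 CPM against 163, 178 and 18.4 CPM. *Frk*, a kinase of epithelial cells, was at 30.0, 35.0 and 12.3 CPM against 12.9, 16.8 and 6.15 CPM. *Prkab1*, a subunit of the energy sensor AMPK, had a log2 difference of -0.79 and *Gchfr*, the feedback regulator of tetrahydrobiopterin synthesis, of -1.48. A pair of endothelial genes was among them. *Aqp1*, a water channel, was at 113, 138 and 184 CPM in the control and 48.6, 58.1 and 159 CPM in the low protein mice. *Cldn5*, the claudin of endothelial tight junctions, was at 31.6, 62.1 and 31.5 CPM against 12.9, 12.1 and 23.4 CPM. The 6 markers of blood endothelium summed to 303, 493 and 679 CPM in the control and 371, 352 and 558 CPM in the low protein mice, which overlapped in the pool. *Cldn5* did not separate low protein from high fat mice, at 15.2, 13.2 and 17.0 CPM in the latter, with a log2 difference of -0.0033.

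The makeup of the summed cells differed between mice. Clusters named from markers gave the share of each class per mouse, and with 3 mice a group an exact permutation test (two-sided) cannot give a p under 0.1. Blood endothelium-like cells made up 5.03%, 7.60% and 6.23% of the kept cells in the control and 4.76%, 4.08% and 4.28% in the low protein mice, a difference of -1.91 percentage points (exact permutation test, p = 0.1, adjusted p = 1.0 over 13 classes). Every low protein mouse lay below every control mouse. Lymphatic endothelium-like cells were on the higher side (0.720% ± 0.240 in the control and 1.07% ± 0.336 in the low protein mice, SD, n = 3 each) and Schwann-like cells on the lower side (1.44% ± 1.25 and 0.974% ± 0.872). Both rest on few cells. Lymphatic endothelium-like cells numbered 5, 1 and 14 in the control and 4, 4 and 9 in the low protein mice. Schwann-like cells numbered 16, 4 and 1 against 6, 7 and 0, and their closest shares in the pool were 1.713% and 1.681%. Fibroblast-like cells went both ways, with 22.6%, 19.6% and 47.3% in the control and 31.9%, 31.2% and 28.3% in the low protein mice. Macrophage-like cells made up 5.35%, 13.3% and 1.63% against 10.1%, 14.0% and 1.68%, and prostate-like cells 8.78%, 5.06% and 0.354% against 5.60%, 7.98% and 0%. The other classes overlapped as well or went opposite ways in the pool and the single-mouse pair.

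**Figure D4:**
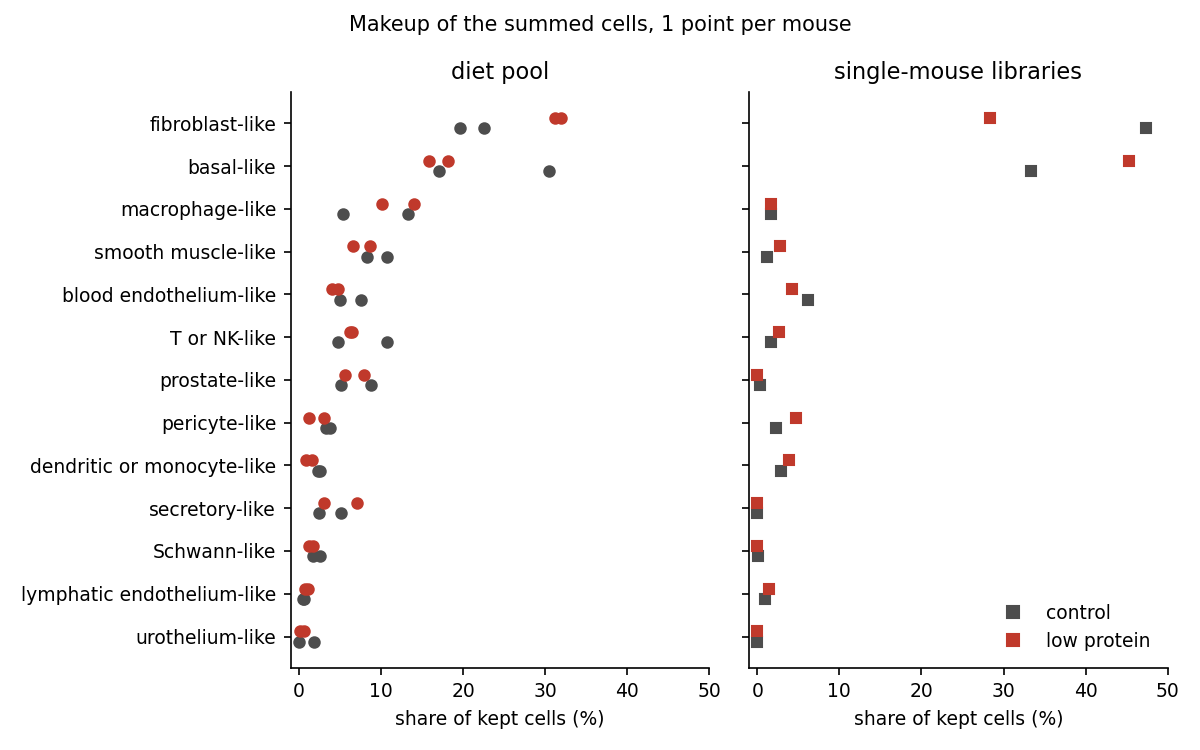
Share of each named class among the kept cells (horizontal axis, %), 1 point per mouse, with grey for control and red for low protein, in the pool (left, circles) and in the single-mouse libraries (right, squares). Blood endothelium-like cells lie lower in the low protein mice in both panels, and fibroblast-like cells lie higher in the pool and lower in the single-mouse pair.

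Basal-like and fibroblast-like cells were the only classes with at least 20 cells in each mouse, so that the test could be run inside them. In basal-like cells, which carry keratins 5 and 14 and renew the epithelium, 0 of 4737 genes passed (0% in either direction), 167 had an unadjusted p under 0.05, and DESeq2 called 1, *Ccl20*. The lowest adjusted p was 0.3848, for *Cd52*, a small glycoprotein, at 145, 109 and 183 CPM in the control and 539, 319 and 242 CPM in the low protein mice. *Pate4*, a secretory product of the seminal vesicle, followed at 860.4, 574 and 2215 CPM against 2614, 1187 and 3102 CPM, and the secretory markers *Ceacam10* and *Pate4* together were higher in the same mice (1172, 899 and 3376 CPM against 2750, 1755 and 4897 CPM without TMM). The part of RNA from secretory cells in this difference was not tested. *Xbp1* was at 209, 219 and 210 CPM in the control and 149, 96.9 and 169 CPM in the low protein mice.

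In fibroblast-like cells 3 genes passed the test, all higher in the low protein mice (3 of 4479, 0.0670%), and 0 were lower (0%). *Ccn1* (*Cyr61*), a matrix protein induced by YAP and by serum, was at 92.3, 113 and 188 CPM in the control and 315, 222 and 451 CPM in the low protein mice (log2 difference 1.37, standard error 0.21, adjusted p = 0.0148 from edgeR). *Angptl7*, an angiopoietin-like protein, was at 40.4, 0 and 189 CPM against 152, 83.2 and 759 CPM (log2 difference 1.90, standard error 0.29, adjusted p = 0.0148 from edgeR). *Cldn4*, a claudin of epithelial tight junctions, was at 30.8, 12.6 and 7.61 CPM against 106, 85.5 and 74.4 CPM (log2 difference 2.19, standard error 0.38, adjusted p = 0.0355 from edgeR). In each of them every low protein mouse lay above the control mice of its kind of library. These levels are scaled by TMM within the class.

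**Figure D5:**
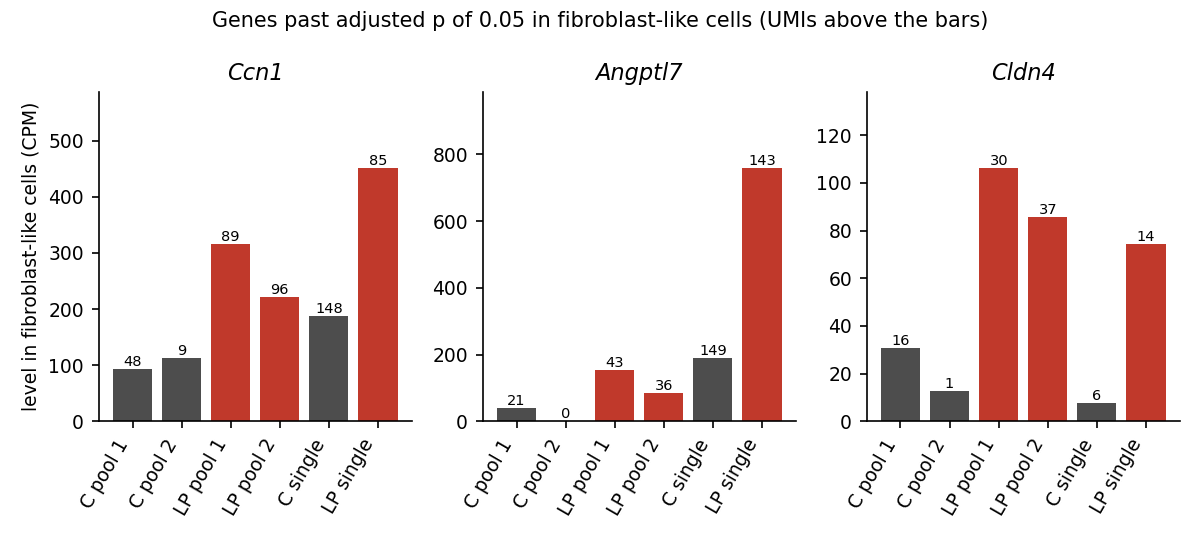
Level of *Ccn1*, *Angptl7* and *Cldn4* in fibroblast-like cells (vertical axis, CPM after TMM within the class), 1 bar per mouse, with grey for control (C) and red for low protein (LP) and the number of UMIs above each bar. The low protein bars are higher than the control bars of the same kind of library in all 3 genes, and the second control mouse of the pool has 9, 0 and 1 UMIs.

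The makeup of the class differed between mice. A cluster led by *Igf1*, *Wnt10a* and *Wnt6* made up 4.74%, 3.23% and 26.1% of the fibroblast-like cells in the control and 14.9%, 8.52% and 36.8% in the low protein mice, without overlap within a kind of library. It held 10, 1 and 174 cells in the control and 17, 15 and 68 cells in the low protein mice. The other clusters of the class overlapped in the pool. The part of the *Igf1* cluster in the levels of the 3 genes was not tested. *Ccn1* had at least 1 UMI in 12.0% to 13.3% of the fibroblast-like cells of a control mouse and in 14.8% to 19.3% of those of a low protein mouse. For *Cldn4* this share was 5.21%, 3.23% and 0.75% in the control and 4.39%, 6.82% and 4.32% in the low protein mice. Its pool mice overlapped, and the 30 UMIs of the first low protein mouse came from 5 cells. *Angptl7* was found in 2, 0 and 48 cells of the control and 6, 6 and 20 cells of the low protein mice. *Angptl7* UMIs lay almost wholly in 1 cluster, which *Angptl7* itself leads with *Lum* and *Mfap4*. In that cluster its level without TMM was 725 and 1179 CPM in the first control mouse of the pool and the control single-mouse library, and 2575, 1939 and 3125 CPM in the low protein mice. The second control mouse of the pool had 1 cell there and no *Angptl7* UMI. The cluster made up 3.79%, 3.23% and 16.5% of the fibroblast-like cells in the control and 7.02%, 3.41% and 23.8% in the low protein mice, shares that *Angptl7* helped to set. *Cldn4* is a marker of basal cells, and the other 5 basal markers summed to 29.8, 12.5 and 39.5 CPM without TMM in the control and 165, 32.6 and 98.0 CPM in the low protein mice inside the fibroblast-like class. The part of basal cell RNA in the *Cldn4* difference was not tested.

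The calls in fibroblast-like cells did not hold under every choice. DESeq2 called 0 of the 3 (adjusted p = 0.052 for *Ccn1*, 0.0542 for *Angptl7* and 0.5235 for *Cldn4*), and 0 genes passed without the library block or without the first low protein mouse of the pool. Without the second control mouse of the pool, which had 31 fibroblast-like cells, 8 genes passed, the 3 among them. Without the second low protein mouse 5 genes passed, and without the first control mouse 2, *Angptl7* and *Cldn4*. Without the control or the low protein single-mouse library 1 gene passed, *Hbb-bt*, and within the pool alone 1 gene passed as well. When 1 mouse was left out, the log2 difference ran from 1.22 to 1.47 for *Ccn1*, from 1.75 to 2.16 for *Angptl7* and from 1.75 to 3.15 for *Cldn4*, whose highest value came without the first control mouse of the pool. Summed over all kept cells, *Ccn1* and *Cldn4* had log2 differences of 0.10 and 0.02.

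Set against the high fat diet, 1 of 9606 genes passed, lower in the low protein mice (0.0104%), and 0 were higher (0%). At an unadjusted p under 0.05 there were 426 genes, 217 higher and 209 lower, and DESeq2 called 3. The gene was *Psca*, prostate stem cell antigen, a surface protein of urothelium and prostate (log2 difference -4.04, standard error 0.24, adjusted p = 0.00119 from edgeR). Its level was 7.59, 12.1 and 0 CPM in the low protein and 153, 185 and 0 CPM in the high fat mice, and the control mice were at 221, 1.94 and 0.534 CPM. Nearly all its UMIs lay in urothelium-like cells: 411 of 424 and 291 of 294 in the high fat mice of the pool, from 3 and 5 such cells, and 8 of 10 and 17 of 23 in the low protein mice, from 2 and 1. The gene did not pass without the library block, with the top 5% of doublet scores left out or in a fit of all 9 mice, and it was not tested once urothelium-like cells were left out. Leaving out 1 mouse gave between 1 and 7 calls, with *Psca* among them in each case. The next gene, *Hba-a1*, had a log2 difference of 5.70 and did not pass (adjusted p = 0.0696 from edgeR). In the high fat mice *Hba-a1* was at 46.5, 11.3 and 0 CPM, and in the low protein mice at 2327, 921 and 0 CPM.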

How the data were processed

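Single-cell libraries of mouse seminal vesicle were made by droplet capture. The authors aligned reads and counted UMIs with different releases of Cell Ranger, and the unnormalized counts per gene and cell were used as deposited. The processing notes name Seurat and mm10. The diet of each pool mouse was read from the name of its table. Of the genes in both gene references, 30406 were kept, and 0 columns were left unmapped.

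Cells with at least 500 genes, at most 10% mitochondrial UMIs and under 30% of UMIs on *Svs2*, *Svs4*, *Svs5* and *Svs6* were summed per mouse. The 7 *Svs* genes were left out of depth, scaling and tests. Sums were tested with edgeR 4.0.16 (R 4.3.3, limma 3.58.1; TMM, filterByExpr, quasi-likelihood test, Benjamini-Hochberg 0.05), and the kind of library (pooled or not) entered the model as a blocking term. DESeq2 1.42.0 was an alternative. The test was run on simulated counts with known changes, and 2.86% and 2.81% of its calls were false at log2 changes of 1 and 2. P-values cover the spread between 3 mice a diet. Exact permutation tests (two-sided) used SciPy 1.17.1.

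Cells were clustered (2000 variable genes, 30 components, 15 neighbours, Leiden resolution 1) and clusters named "-like" from listed markers. Of 32 clusters, 5 stayed unnamed, with 114 cells of the 6 mice. Doublets were kept in the main fit, and the top 5% of doublet scores were left out as an alternative. Genes named in the text were the 10 with the lowest p in each direction (since fewer than 10 passed), the 2 with the lowest p of each list and every called gene. Other genes on 1 side, and the values of *Hsp90b1*, *Atf4*, *Xbp1* and the uncalled genes in basal-like and prostate-like cells, were chosen after their values were seen. The cells, lists and tests were chosen with earlier results of these data known. Leaving out prostate-like, secretory-like and urothelium-like cells was chosen after seeing the data.

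Table numbers do not pair mice by design, and same-numbered pool mice of the low protein and control diets deviated together with r = 0.171. Some list members are not reported here by name.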

Additional observations from a re-analysis of the deposited data

Results flagged for a closer look

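In several results both low protein mice of the pool lay on the opposite side of the controls from the low protein single-mouse library. The difference between the pool and the single-mouse pair was not tested in any of them. As log2 ratios of CPM (with 1 added for single genes), *Dbp* was at 0.8166 in the pool and -0.2683 in the single-mouse pair. *Timp2* was at 0.6346 and -0.2687, *Tsc22d3* at 0.63 and -0.04705, and *Dusp1* at 0.4801 and -0.2237. *Igfbp4* was at 0.6935 and -0.3217, and *Hba-a1* at 2.593 and -2.89. The summed hemoglobin genes were at 2.567 in the pool and had no UMI in the low protein single-mouse library. The summed aminoacyl-tRNA synthetase genes were at -0.1767 and 0.02327. In percentage points of the kept cells, the share of fibroblast-like cells differed by 10.46 in the pool and -19.02 in the single-mouse pair. Dendritic or monocyte-like cells differed by -1.226 and 0.9898, and pericyte-like cells by -1.397 and 2.403.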

How the results depend on the processing

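Of the alternatives run, single genes kept their direction and side of the threshold in 1366 cases, passed in 26, lost a call in 22 and reversed in 19, over 64 named genes and the genes called within a class. Between low protein and control, 2 genes were called with DESeq2, 86 with no filter on low counts, and 0 to 2 when 1 mouse was left out (2 without the second control mouse of the pool, *Psca* and *Sbp*). Without the filter the variance prior changed too, with a median prior df of 5.71 with it and no finite value without it. Against high fat, 3 genes were called with DESeq2, 162 with no filter, 0 with no block, 4 within the pool alone, 2 at 200 genes, 2 at a mitochondrial limit of 5%, 0 without the top doublet scores, 2 with the same number of cells of each class, 2 without the luminal cells, 0 in a fit of 9 mice, and 1 to 7 when 1 mouse was left out. In basal-like cells the counts were 1 with DESeq2, 9 with no filter, 4 within the pool alone and 0 to 4 when 1 mouse was left out. In fibroblast-like cells they were 0 with DESeq2, 18 with no filter, 0 with no block, 1 within the pool alone and 0 to 8 when 1 mouse was left out.

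The draw of the same number of cells of each class held 121 cells per mouse, no luminal ones among them, and was made once. In it, log2 differences reversed to -0.26 for *Angptl7*, 0.26 for *Slc7a5*, -0.42 for *H2-Eb1*, -0.14 for *Ccl8*, 0.16 for *Scd1*, 0.13 for *Prdx6*, 0.0737 for *Psmd2*, -0.15 for *Spinkl* and 0.39 for *Msmo1*. Without the luminal cells they were 1.27 for *Tgm4*, 1.42 for *Pbsn* and 0.00387 for *Prdx6*, and within the pool alone 0.10 for *Htra1*. When 1 mouse was left out, *H2-Eb1* ran from -0.0688 to 0.86, *H2-DMb1* from -0.14 to 0.61, *Htra1* from -0.53 to 0.10 and *Ifit3* from -0.0313 to 1.86. The cause was not tested.

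With the table number as a replicate block in place of the library, 0 genes were called between low protein and control and 2 against high fat. Same-numbered mice of the pool deviated together with r = 0.171 and -0.0494, so the samples share a number only. The smallest library, with 530317 UMIs, limits what low genes can show.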
